A study of Mus musculus with 6 samples.

Results

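The 9 genes described here encode the calcium release channels of the endoplasmic reticulum (ER), the pumps that refill it, and an anchoring protein of the ryanodine receptor. They are the IP3 receptors *Itpr1*, *Itpr2* and *Itpr3*, the ryanodine receptors *Ryr1*, *Ryr2* and *Ryr3*, the SERCA pumps *Atp2a2* and *Atp2a3*, and *Akap6*, and they were chosen by gene symbol from the 52390 genes of the deposited count table. All 9 were among the 21844 genes with enough counts to be tested. The choice was made with results of the comparison between the groups in view, so for these 9 genes that comparison is given as a description, without a test.

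Bulk RNA-seq had been carried out on brain tissue of 3 *AP1AR-DT* OE mice and 3 control mice. *AP1AR-DT*, which the sample labels call AC109347.1, is a human long noncoding RNA with no mouse counterpart. The *AP1AR-DT* OE mice had received a recombinant adeno-associated virus (rAAV) that carried it under a neuronal promoter, that of human synapsin I, with EGFP under the CMV promoter. The control mice had received an empty AAV vector with no insert. All were male wild-type C57BL/6 mice, injected into the medial prefrontal cortex (mPFC) at 8 weeks of age, so both groups had undergone viral injection and surgery. The age at which RNA was taken is not given for these libraries in the sources used here. Non-neuronal cells, and neurons that the virus did not reach, may be part of the sampled tissue. The count table lists no *AP1AR-DT* gene, so the group labels could not be checked against the transgene. Columns of the control group match mice 1 to 3 by number. Those of the *AP1AR-DT* OE group are numbered 1 to 3, whereas the labels number these mice 3 to 5, so the columns were matched to the group only and used as unnumbered samples, called mice A, B and C here in column order.

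IP3 receptors open when inositol 1,4,5-trisphosphate, made by phospholipase C downstream of Gq-coupled receptors, binds together with calcium. Ryanodine receptors are opened mainly by calcium itself and so amplify calcium entry, and SERCA pumps return the released calcium to the ER with energy from ATP. In neurons these stores take part in dendritic calcium signals and synaptic plasticity. *Akap6*, also called mAKAP, anchors protein kinase A, phosphodiesterase, calcineurin and ryanodine receptor 2 in one complex, best known at the nuclear envelope of heart muscle cells and neurons. In GENCODE vM21 on GRCm38 these protein-coding genes lie as follows: *Itpr1* at chr6:108213096-108551109 (plus strand), *Itpr2* at chr6:146108299-146502223 (minus strand), *Itpr3* at chr17:27057304-27122223 (plus strand), *Ryr1* at chr7:29003344-29125179 (minus strand), *Ryr2* at chr13:11553102-12106945 (minus strand), *Ryr3* at chr2:112631355-113217096 (minus strand), *Akap6* at chr12:52699383-53155599 (plus strand), *Atp2a2* at chr5:122453513-122502225 (minus strand), *Atp2a3* at chr11:72961169-72993044 (plus strand).

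The 6 channels share one short stretch of sequence, the codons of the selectivity filter through which calcium passes, which is shown here because it lets the paralogs be compared base by base. Each line gives 48 bases of the coding strand of the longest protein-coding transcript in GENCODE vM21, with the 18 bases of the 6 filter codons in capitals.
Itpr1: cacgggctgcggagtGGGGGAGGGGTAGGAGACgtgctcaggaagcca
Itpr2: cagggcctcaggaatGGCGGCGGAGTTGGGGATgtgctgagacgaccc
Itpr3: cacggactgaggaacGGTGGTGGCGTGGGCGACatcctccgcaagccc
Ryr1: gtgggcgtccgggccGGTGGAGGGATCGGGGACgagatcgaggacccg
Ryr2: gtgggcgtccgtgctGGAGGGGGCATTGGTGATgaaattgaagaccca
Ryr3: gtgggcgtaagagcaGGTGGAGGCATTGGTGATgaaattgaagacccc
The capitals were found in the reading frame as 3 codons GGN followed by a codon GTN or an isoleucine codon, a codon GGN and a codon GAC or GAT. This pattern was found 1 time in each of the 6 coding sequences. In any frame, it was present in the longest protein-coding transcript of 19 of 21901 genes (0.0868%). On GRCm38 the windows lie, within 1 coding exon each, as follows: *Itpr1* at chr6:108518773-108518820 (plus strand, exon 58 of 62), *Itpr2* at chr6:146158896-146158943 (minus strand, exon 52 of 56), *Itpr3* at chr17:27118616-27118663 (plus strand, exon 54 of 58), *Ryr1* at chr7:29005583-29005630 (minus strand, exon 102 of 106), *Ryr2* at chr13:11560612-11560659 (minus strand, exon 101 of 105), *Ryr3* at chr2:112636616-112636663 (minus strand, exon 100 of 104). *Ryr2* and *Ryr3* were identical at 41 of the 48 bases and *Ryr1* matched each of them at 36, while *Itpr1* matched *Itpr3* at 34 and *Itpr2* at 31. In the capitals alone, *Ryr2* and *Ryr3* were identical at 16 of 18 bases. Between the families the windows matched at 20 (*Itpr3* and *Ryr2*) to 28 bases (*Itpr1* and *Ryr1*). Over the whole coding sequence, the third base of a codon was G or C in 80.6% of codons in *Itpr3*, 71.7% in *Ryr1*, 66.1% in *Itpr2*, 64.3% in *Itpr1*, 58.0% in *Ryr2* and 57.4% in *Ryr3*. *Itpr3* and *Ryr1* were thus the GC-rich members of their families, which bears on the correction for GC content described with the group comparison.

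Library totals ranged from 42061721 to 54668294 counts, and 5.75% to 9.86% of counts were of mitochondrial genes. The labels name the tissue as brain, and the study's text names it as cortical tissue and as mPFC. Tissue markers differed between mice of one group. *Slc17a7*, the vesicular glutamate transporter of cortical excitatory neurons, ranged from 3.86 to 233 CPM (read counts scaled to one common library size) in control and from 87.2 to 463 in *AP1AR-DT* OE mice. *Slc32a1*, a marker of GABA neurons, was above *Slc17a7* in every mouse, at 309 to 789 CPM. Over all mice, the summed markers of GABA neurons were at 1036 to 2152 CPM and those of excitatory neurons at 112 to 682. The summed CPM of 7 striatal medium spiny neuron markers ranged from 322 to 1143 in control and from 723 to 2119 in *AP1AR-DT* OE mice. Control 3 stood apart in 8 choroid plexus markers, at 3985 CPM against 53.4 to 79.5 in the other mice, and control 2 in 8 hypothalamic markers, at 657 CPM against 6.6 to 79.5. Control 3 was also highest in the sums of thalamic markers (609 CPM, others 105 to 197) and oligodendrocyte markers (10644 CPM, others 5048 to 6430). The levels given below are those of the sampled tissue, whose regional makeup was not tested. The part of tissue sampling in the differences between the groups was not tested. In bulk tissue, fewer cells of a type and less RNA per cell cannot be told apart.

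To ask which release channels, pumps and anchor were present in this tissue, levels were compared between the 9 genes as normalized CPM per kilobase of the longest transcript. *Atp2a2*, the SERCA2 pump present in most cells, had by far the highest level, at 112 ± 9.72 CPM per kilobase (SD, n = 6 mice of both groups). *Itpr1*, the main IP3 receptor of neurons, followed at 13.8 ± 4.05 and *Akap6* at 12.9 ± 2.06 CPM per kilobase. *Ryr2*, the ryanodine receptor of heart and brain, had 3.86 ± 0.406 CPM per kilobase. *Ryr3*, a broadly present isoform, had 1.86 ± 0.474, *Atp2a3*, the SERCA3 pump known from blood and epithelial cells, had 1.81 ± 0.404, and *Itpr2*, the IP3 receptor prominent in astrocytes, had 1.62 ± 0.246 CPM per kilobase. Lowest were *Ryr1*, the skeletal muscle channel that is also present in some neurons, at 0.518 ± 0.291, and *Itpr3*, an isoform of secretory and epithelial cells, at 0.439 ± 0.126 CPM per kilobase.

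**Figure D1:**
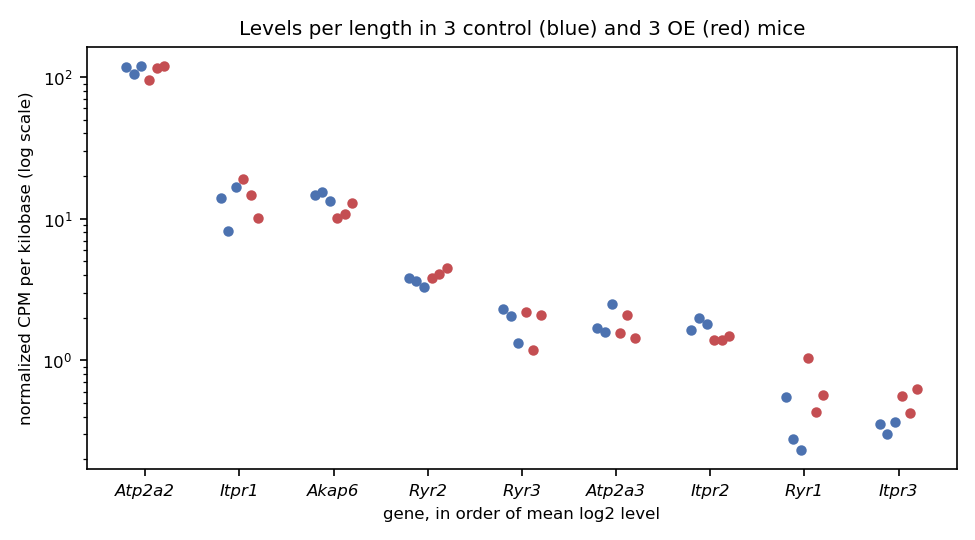
Level of each gene in normalized CPM per kilobase of its longest transcript, on a log axis, with 1 point per mouse (control mice 1 to 3 in blue, *AP1AR-DT* OE mice A to C in red). *Atp2a2* lay between 94.9 and 119 in all 6 mice, and *Itpr3* between 0.302 and 0.623.

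Neighbours in this order were compared by an exact two-sided sign-flip permutation test of the log2 ratio over the 6 mice, in which the smallest possible p is 0.0312. In 4 of 8 neighbouring pairs the same gene was higher in 6 of 6 mice, each with an exact p of 0.0312 and a Benjamini-Hochberg (BH) adjusted value of 0.0625 over the 8 pairs. These were *Atp2a2* over *Itpr1* (8.43-fold per kilobase), *Akap6* over *Ryr2* (3.31-fold), *Ryr2* over *Ryr3* (2.13-fold) and *Itpr2* over *Ryr1* (3.51-fold). None of the 8 therefore passed 0.05 after adjustment. With 4 of 8 pairs at the smallest possible p, the adjusted value cannot fall below 0.0625, so this outcome reflects the limit of 6 mice. The order that was tested had also been set by the mean levels of the same mice. The other pairs did not differ beyond the spread between mice. *Itpr1* was above *Akap6* in 3 of 6 mice (exact p = 0.875), *Ryr3* above *Atp2a3* in 4 of 6 (exact p = 0.906), *Atp2a3* above *Itpr2* in 4 of 6 (exact p = 0.312) and *Ryr1* above *Itpr3* in 3 of 6 (exact p = 0.75).

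The level of a gene per kilobase depends on the length used. According to the study's methods, reads were mapped by a tool that does not split them at introns. The exons of the channels are short: *Itpr1* has 62 exons with a median of 141 bases, while the longest exon of *Akap6* holds 7789 of its 14847 bases. Counted per kilobase of positions at which a 150-base read lies within 1 exon, a length chosen after seeing the data, *Itpr1* had a mean of 61.6 and *Akap6* of 14.7 CPM per kilobase. Per kilobase of the union of exons the order was the opposite, with 7.42 for *Itpr1* and 12.9 for *Akap6*. *Atp2a2* was first and *Ryr2* in place 4 under all 4 lengths used, and *Itpr3* and *Ryr1* took the last 2 places.

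Within each family 1 isoform made up most of the level per kilobase of the longest transcript in every mouse. *Itpr1* gave 78.0% to 90.6% of the IP3 receptor total, *Itpr2* 6.69% to 19.2% and *Itpr3* 1.96% to 5.12%. *Ryr2* gave 54.2% to 71.6% of the ryanodine receptor total, *Ryr3* 20.8% to 34.6% and *Ryr1* 4.69% to 14.8%. Under the other 3 lengths the lowest share of *Itpr1* was 70.0%, while that of *Ryr2* was 47.0% per kilobase of the union of exons and 48.2% per kilobase of read positions within 1 exon. *Atp2a2* gave 97.9% to 98.8% of the total of the 2 SERCA genes, with *Atp2a1*, the pump of fast skeletal muscle, at 0 to 1.36 CPM and not tested.

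*AP1AR-DT* OE mice were then compared with control mice. Values are normalized CPM, and Log2FC is the log2 fold change of *AP1AR-DT* OE over control mice from edgeR, with its standard error (SE). The study's thresholds for differentially expressed genes were P under 0.05 and |Log2FC| above 0.32. It applied them to DESeq2 results, whereas here they were applied to the edgeR fit unless stated. By DESeq2, run here on the same counts, 4 of the 9 genes were past them (*Ryr1*, *Itpr2*, *Itpr3* and *Akap6*), against 13.6% of all genes tested. By edgeR, 3 of the 9 genes were past them, against 12.2% of all genes tested. *Itpr3* was past them upward, a direction taken by 5.1% of all genes tested, and *Akap6* and *Itpr2* downward, as were 7.15%. The groups did not overlap for 4 genes (*Itpr2*, *Itpr3*, *Ryr2* and *Akap6*), against 22.4% of all genes tested. The median Log2FC of the 9 genes was -0.05, beside -0.01 over all genes tested. Without control 2 or without mouse A, 0 of the 9 genes were past the thresholds, beside 9.79% and 7.19% of all genes in those fits. Without control 1 there were 4, beside 15% of all genes. Since these genes were proposed from this contrast, nothing is read from those counts.

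**Figure D2:**
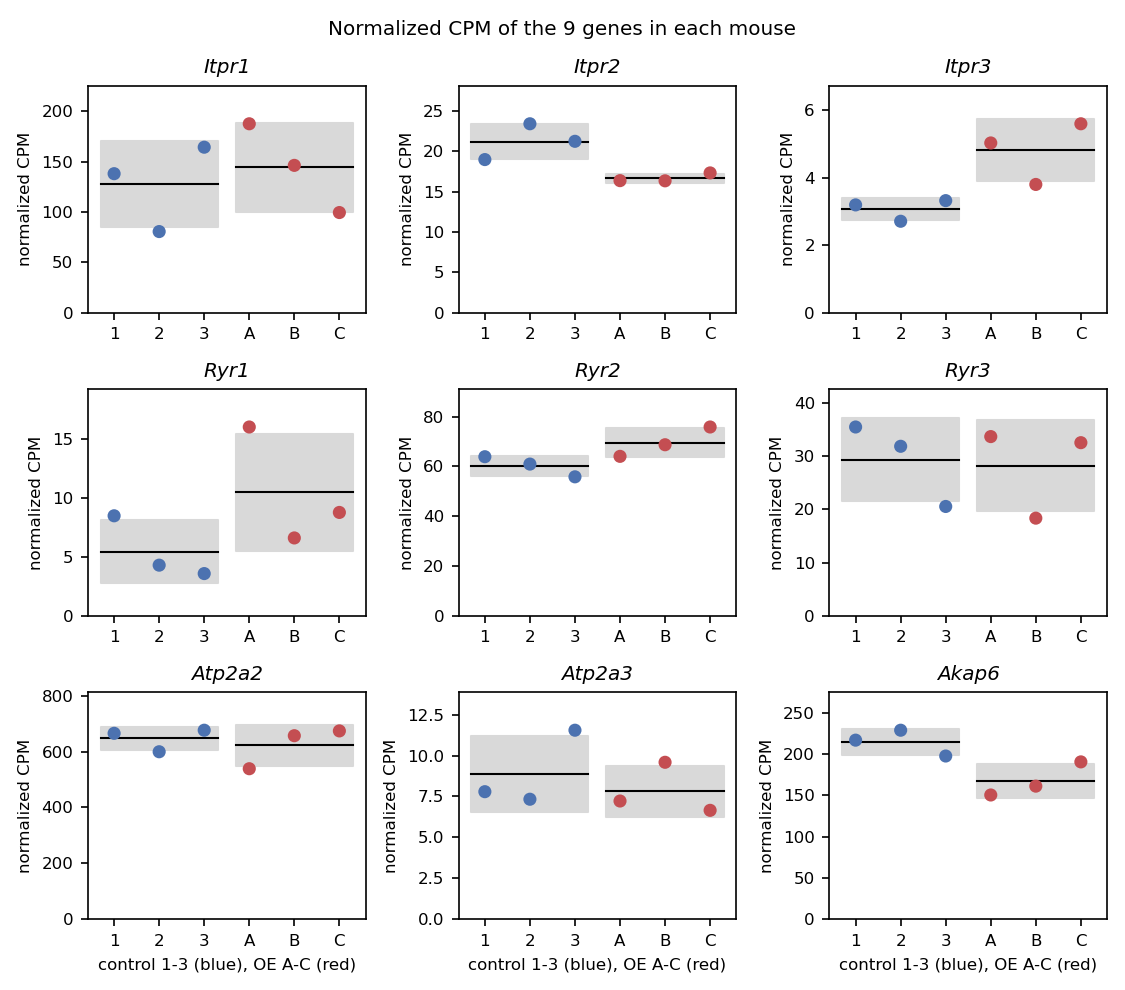
Normalized CPM of each gene in control mice 1 to 3 (blue) and *AP1AR-DT* OE mice A to C (red), 1 panel per gene with the axis starting at 0; lines are group means and grey bands 1 SD on either side (n = 3). *Itpr2* and *Akap6* were lower and *Itpr3* and *Ryr2* higher in all 3 *AP1AR-DT* OE mice than in any control mouse, and the other 5 genes overlapped.

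Among the IP3 receptors, *Itpr1* had 138, 80.5 and 164 CPM in control mice 1 to 3 and 188, 146 and 99.4 in *AP1AR-DT* OE mice A to C. The groups overlapped widely, with the lowest value in control 2 and the highest in mouse A. The means were 128 ± 42.8 and 144 ± 44.1 CPM (SD, n = 3 each), with a Log2FC of 0.18 (SE 0.31). Leaving out 1 mouse at a time moved this Log2FC between -0.06 and 0.42, and it was below 0 without control 2 (-0.06) and without mouse A (-0.05).

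*Itpr2* had 19.0, 23.4 and 21.2 CPM in the control mice and 16.4, 16.3 and 17.3 in the *AP1AR-DT* OE mice. Every *AP1AR-DT* OE mouse was below every control mouse, and the *AP1AR-DT* OE mice lay close together. The means were 21.2 ± 2.22 and 16.7 ± 0.56 CPM (SD, n = 3 each), a Log2FC of -0.35 (SE 0.12). It was not past the thresholds without control 2 (-0.26), control 3 (-0.33), mouse A (-0.33) or mouse B (-0.33). The summed CPM of 7 astrocyte markers, of which 1 was past the thresholds downward and 0 upward, was 2824 to 3176 in control and 2756 to 2905 in *AP1AR-DT* OE mice. Those ranges overlapped, and their part in the *Itpr2* values was not tested.

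*Itpr3* had 3.2, 2.71 and 3.32 CPM in the control mice and 5.03, 3.8 and 5.6 in the *AP1AR-DT* OE mice. All *AP1AR-DT* OE mice were above the control mice, mouse B least so. The means were 3.08 ± 0.323 and 4.81 ± 0.92 CPM (SD, n = 3 each), a Log2FC of 0.65 (SE 0.22). It was not past the thresholds without control 2 (0.57), mouse A (0.61) or mouse C (0.54). The 6 endothelial markers summed to 80.6, 85.7 and 96.7 CPM in control mice 1 to 3 and 103, 137 and 97.3 in mice A to C, with 2 of 6 past the thresholds upward. Mouse B had the highest of these sums but the lowest *Itpr3* value of its group, and mouse C was almost level with control 3. Summed markers of smooth muscle cells and pericytes were at 77.5 to 84.1 and 89.1 to 110 CPM, with 1 of 6 past them upward. The part of vessel cells in the *Itpr3* values was not tested. An antisense gene, *Itpr3os*, and a microRNA gene overlap 2.6% of the exon bases of *Itpr3*, and use of strand in counting is not given in the sources used here, so a small share of its counts is uncertain.

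Among the ryanodine receptors, *Ryr1* had 8.48, 4.3 and 3.58 CPM in the control mice and 16.0, 6.6 and 8.77 in the *AP1AR-DT* OE mice. Mouse A was far above the rest, and control 1 was above mouse B, so the groups overlapped. The means were 5.45 ± 2.65 and 10.5 ± 4.93 CPM (SD, n = 3 each), a Log2FC of 0.94 (SE 0.43) and the farthest from 0 among the 9 genes, yet not past the thresholds by edgeR. By DESeq2 it was past them, with a Log2FC of 0.95. *Ryr1* also varied most between mice, by 4.47-fold from the lowest to the highest, against 1.26-fold for *Atp2a2*. Without control 1 or without mouse B its Log2FC was past the thresholds, and over the 6 fits that left out 1 mouse it ran from 0.50 to 1.41.

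The striatal medium spiny neuron markers *Ppp1r1b*, *Drd1*, *Drd2*, *Adora2a*, *Rgs9*, *Pde10a* and *Penk* summed to 1143, 322 and 442 CPM in control mice 1 to 3 and 2119, 723 and 787 in mice A to C. Mouse A was highest, and the 2 lowest mice were controls 2 and 3, in this sum as for *Ryr1*. None of the 7 markers was at 0 in any mouse, and 0 of 7 were past the thresholds. Their part in the *Ryr1* values was not tested. The 7 skeletal muscle markers summed to 5.8 to 6.8 CPM in control and 6.0 to 7.7 CPM in *AP1AR-DT* OE mice, with *Tnnt3* at 0 in every mouse and *Ckm* at most 0.305 CPM. *Gm26604*, an antisense gene, and a microRNA gene overlap 4.18% of the exon bases of *Ryr1*.

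**Figure D3:**
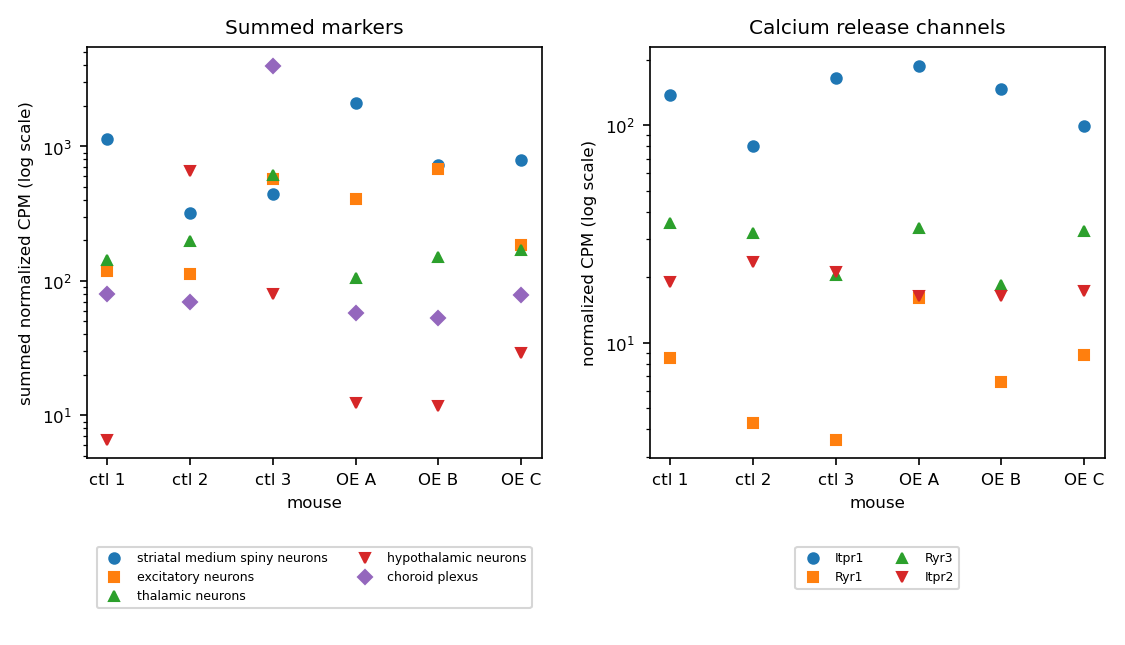
Summed normalized CPM of 5 marker lists (left) and normalized CPM of 4 calcium release channels (right) in each of the 6 mice, both on log axes. The striatal sum was highest in mouse A (2119) and lowest in control 2 (322), the choroid plexus sum was 3985 in control 3, and *Ryr1* was highest in mouse A and lowest in control 3.

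*Ryr2* had 63.9, 60.9 and 55.8 CPM in the control mice and 64.0, 68.7 and 75.8 in the *AP1AR-DT* OE mice. The groups did not overlap, but control 1 and mouse A were almost equal. The means were 60.2 ± 4.08 and 69.5 ± 5.93 CPM (SD, n = 3 each), and the Log2FC of 0.21 (SE 0.10) was under the threshold of 0.32. *Ryr3* had 35.5, 31.9 and 20.6 CPM in the control mice and 33.7, 18.4 and 32.5 in the *AP1AR-DT* OE mice. In each group 1 mouse, control 3 and mouse B, was well below the other mice. The Log2FC of *Ryr3* was -0.06 (SE 0.28), and from -0.24 to 0.18 when 1 mouse was left out. Control 3 and mouse B were also the mice with the highest summed excitatory neuron markers, at 577 and 682 CPM against 112 to 410 in the other 4. Of these markers, *Slc17a7*, *Neurod2*, *Neurod6* and *Nrn1* were highest in those mice, but *Rorb*, *Cux2* and *Tbr1* did not share that order. *Slc17a7*, the largest part of the sum in mouse B, was almost equal in control 3 (233 CPM) and mouse A (231 CPM). The part of tissue makeup in the *Ryr3* values was not tested. Exons of the neighbouring gene *Aven* overlap 4.83% of the exon bases of *Ryr3*.

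Of the pumps, *Atp2a2* had 666, 600 and 677 CPM in the control mice and 539, 657 and 674 in the *AP1AR-DT* OE mice. The groups overlapped, mouse A being the lowest, and the Log2FC was -0.05 (SE 0.12), or 0.04 without mouse A and 0.07 with the correction for mean GC content. *Atp2a3* had 7.79, 7.33 and 11.6 CPM in the control mice and 7.22, 9.59 and 6.65 in the *AP1AR-DT* OE mice. It was highest in control 3, the mouse with the choroid plexus markers, and next highest in mouse B, where the sum of those markers was lowest (53.4 CPM). The part of tissue makeup in the *Atp2a3* values was not tested. The Log2FC of *Atp2a3* was -0.19 (SE 0.23). It was 0.06 without control 3 and -0.37 with the correction for GC content.

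The anchor *Akap6* had 217, 229 and 198 CPM in the control mice and 150, 161 and 190 in the *AP1AR-DT* OE mice. All *AP1AR-DT* OE mice were below all control mice, with mouse C closest to control 3. The means were 214 ± 15.8 and 167 ± 20.8 CPM (SD, n = 3 each), a Log2FC of -0.36 (SE 0.12). It was not past the thresholds without control 2 (-0.30), mouse A (-0.28) or mouse B (-0.33). No other gene overlaps the exons of *Akap6*, *Itpr2*, *Ryr2* or *Atp2a3*.

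The Log2FC of a gene moved with its base composition across the whole table. By deciles of the GC content of the longest transcript, the median Log2FC ran from -0.30 in the lowest to 0.22 in the highest. *Akap6*, at 43.8% GC, was in a decile with a median of -0.13. *Itpr3*, at 57.5%, was in one with a median of 0.16, and *Ryr1*, at 58.0%, in one with 0.22. *Itpr2*, at 49.6% GC, was in a decile with a median of 0.03. After a correction for GC content, *Akap6* had a Log2FC of -0.19 and *Itpr3* of 0.47, and neither was past the thresholds, whereas *Itpr2* at -0.36 was. That left 1 of 9 genes past them, beside 7.18% of all genes in the same fit. With the correction for mean GC content 2 of 9 were past them, *Itpr2* at -0.35 and *Ryr2* at 0.41, beside 7.12% of all genes. After a correction for transcript length, *Akap6* had -0.18 and *Itpr2* -0.18, neither past the thresholds, while *Itpr3* at 0.77, *Ryr1* at 1.12 and *Ryr2* at 0.40 were.

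**Figure D4:**
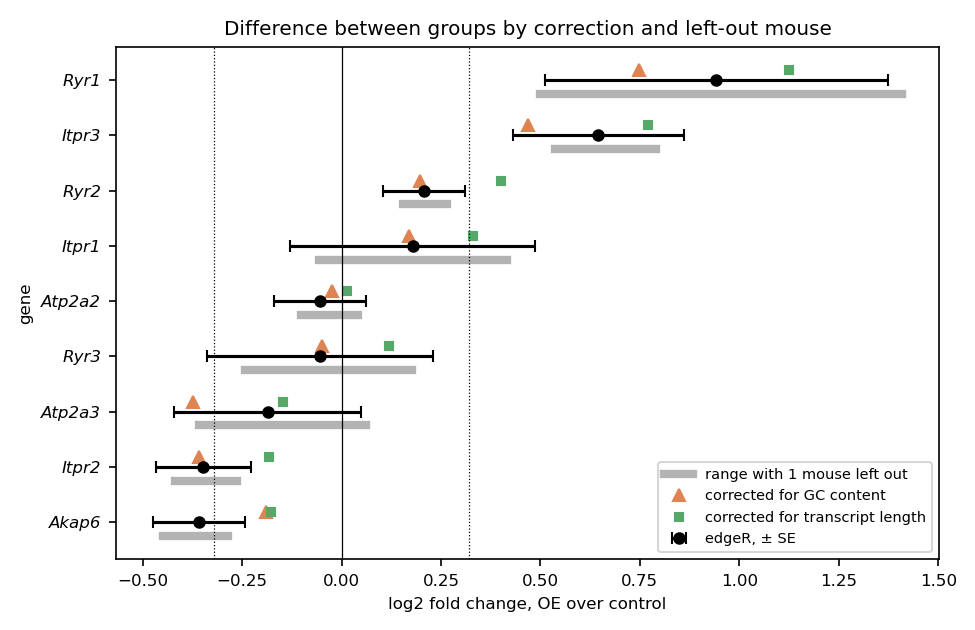
Log2FC of *AP1AR-DT* OE over control mice for each gene from edgeR (black, bars 1 SE), after correction for GC content (orange triangles) or transcript length (green squares), and its range when 1 mouse was left out (grey bars); dotted lines mark 0.32 on either side of 0. The Log2FC of *Akap6* moved from -0.36 to -0.19 with the GC correction and that of *Itpr3* from 0.65 to 0.47, while all values of *Akap6* and *Itpr2* were below 0 and all of *Itpr3*, *Ryr1* and *Ryr2* above it.

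Promoters are shown for the 3 genes past the thresholds. The base composition that moved with Log2FC was that of transcripts, and that of promoters was not compared with Log2FC. Each runs from 250 bases before to 50 after the transcription start (RefSeq, GRCm38.p6), on the strand of the gene: *Akap6* chr12:52699133-52699432 (plus strand), *Itpr2* chr6:146502174-146502473 (minus strand), *Itpr3* chr17:27057054-27057353 (plus strand). Capitals mark matches to the motifs searched.
Akap6: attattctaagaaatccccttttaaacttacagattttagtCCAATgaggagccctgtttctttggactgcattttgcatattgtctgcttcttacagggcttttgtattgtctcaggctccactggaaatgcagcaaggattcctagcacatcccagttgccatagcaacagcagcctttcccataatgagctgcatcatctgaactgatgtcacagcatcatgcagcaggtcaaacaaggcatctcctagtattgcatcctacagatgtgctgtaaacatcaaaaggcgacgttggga
Itpr2: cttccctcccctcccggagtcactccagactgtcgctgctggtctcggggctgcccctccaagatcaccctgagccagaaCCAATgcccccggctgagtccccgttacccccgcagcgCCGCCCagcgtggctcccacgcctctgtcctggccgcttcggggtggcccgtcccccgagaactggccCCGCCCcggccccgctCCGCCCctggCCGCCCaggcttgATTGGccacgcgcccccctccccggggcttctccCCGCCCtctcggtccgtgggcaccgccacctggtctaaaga
Itpr3: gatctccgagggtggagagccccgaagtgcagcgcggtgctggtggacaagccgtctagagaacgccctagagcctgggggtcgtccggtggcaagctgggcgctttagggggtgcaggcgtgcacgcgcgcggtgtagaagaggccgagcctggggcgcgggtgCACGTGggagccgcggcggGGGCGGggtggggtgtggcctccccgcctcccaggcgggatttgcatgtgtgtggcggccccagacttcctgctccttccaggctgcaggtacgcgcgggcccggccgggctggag
RefSeq promoters were matched for 6 of the 9 genes (*Akap6*, *Atp2a3*, *Itpr2*, *Itpr3*, *Ryr1* and *Ryr2*), and not for *Itpr1*, *Ryr3* and *Atp2a2*. The *Akap6* promoter had 43.7% GC, higher than 18.2% of the 32851 promoters of the table, and those of *Itpr2* (73.3%) and *Itpr3* (72.3%) were higher than 94.5% and 93.5% of them. Motifs were searched on both strands. The GC box GGGCGG was in 5 of the 6 promoters, all but that of *Akap6*, and in 35.7% of all promoters. CCAAT was in 3 (*Akap6*, *Itpr2* and *Ryr1*) and in 37.4% of all, and the E-box CACGTG was in that of *Itpr3* and in 7.15% of all. The NRF1 site, GCGC then any base then TGCGC (4.6% of all promoters), the CRE TGACGTCA (1.79%) and the TATA box TATAAA (13.6%) were in 0 of the 6. No matches overlapped in the 3 promoters shown, and a match or its absence describes only these 300 bases.

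To place the 9 genes in their pathway, 10 lists of calcium-handling genes that hold none of them were tested in the same fit. These lists, too, were chosen with earlier results of these data known. Their counts past the thresholds are therefore a description, and nothing is read from them. Beside each list count below stand the shares over all genes tested, 5.1% upward and 7.15% downward. Of 182 genes tested in any list, 9 were past the thresholds upward and 21 downward, together 16.5% beside 12.2% of all genes, and 42 (23.1%) had groups that did not overlap. The median Log2FC was -0.05. Without control 1 there were 22 upward, and without control 2 there were 5. Without mouse A there were 3 upward and 8 downward, and without mouse B 3 and 6. Over all genes, both directions together, the share past the thresholds was 15% without control 1 and 9.79% without control 2. It was 7.19% without mouse A and 6.33% without mouse B. By edgeR with BH adjustment over all genes tested, 0 of the 182 had an adjusted P under 0.05 (smallest 0.295), as had 0.0275% of all genes. An unadjusted P under 0.05 was found for 38, and limma-voom gave 0 and DESeq2 5 genes with an adjusted P under 0.05 (*Cabp1*, *Hsp90b1*, *Sln*, *Nfatc3* and *Akap5*). No gene of these lists is therefore called changed by the main test, which does not show that none differed, and the values that follow are Log2FC from that test. Of the 9 upward, 1 (*Cabp1*) was also past the thresholds in each fit that left out 1 mouse, as were 4 of the 21 downward (*Plce1*, *Hsp90b1*, *Akap14* and *Nfatc3*). With the correction for GC content of the longest transcript, 1 of the 9 (*Cabp1*) and 16 of the 21 were, and with that for mean GC content 1 and 11.

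**Figure D5:**
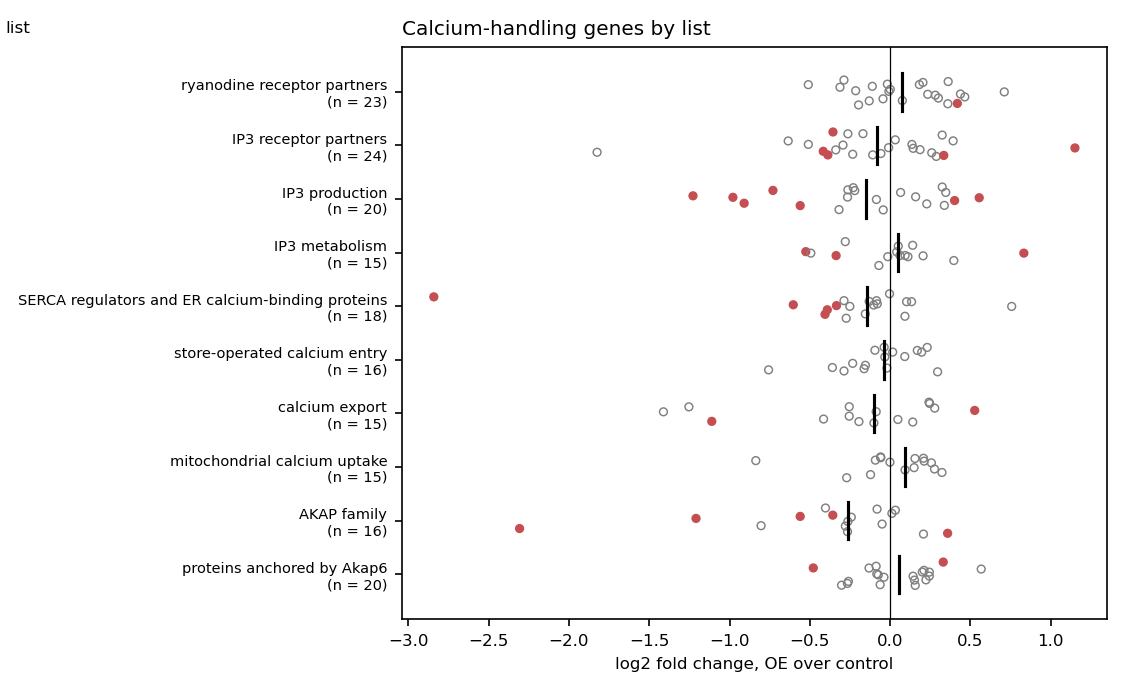
Log2FC of *AP1AR-DT* OE over control mice for every tested gene of the 10 calcium-handling lists, with n the number of genes tested, bars at the list medians and filled red points past the thresholds. Store-operated calcium entry and mitochondrial calcium uptake had 0 genes past them, IP3 production had 7 of 20, and the AKAP family had the lowest median, -0.26.

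Of the 23 tested ryanodine receptor partners, 1 was past the thresholds upward and 0 downward, with a median of 0.08. *Jph3*, a junctophilin that ties the ER to the plasma membrane in neurons, had 232, 207 and 214 CPM in control and 305, 333 and 234 in *AP1AR-DT* OE mice (Log2FC 0.42, SE 0.14, edgeR adjusted P = 0.295). It was not past the thresholds with the GC corrections by longest transcript (0.16) and by mean (0.18). The calcium-binding protein *Sri*, sorcin, was lower in each *AP1AR-DT* OE mouse than in any control mouse at -0.29 (SE 0.11), or -0.01 and -0.13 with these corrections. *Fkbp1b*, which stabilizes the closed ryanodine receptor, was at 0.36 (SE 0.30) with overlapping groups, and at 0.01 without mouse B.

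Of 24 partners of the IP3 receptors, 2 were past the thresholds upward and 3 downward, with a median of -0.08. *Cabp1*, a calcium-binding protein that inhibits the IP3 receptor, had 23.7, 18.6 and 32.2 CPM in control and 60.0, 72.1 and 33.4 in *AP1AR-DT* OE mice. Mouse C was only just above control 3, and the Log2FC was 1.15 (SE 0.31), with adjusted P from 0.0143 by DESeq2 to 0.661 over the 16 fits. *Bcl2*, which binds IP3 receptors and limits calcium release, was at -0.42 (SE 0.14), with 28.7 to 31.5 CPM in control and 19.7 to 26.8 in *AP1AR-DT* OE mice, and was under the threshold of 0.32 with the corrections for mean GC content (-0.26) and length. *Homer1*, which links IP3 receptors to metabotropic glutamate receptors, was at 0.14 (SE 0.14) and, past the thresholds, at 0.49 and 0.36 with the GC corrections by longest transcript and by mean.

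IP3 production had the most genes past the thresholds, 2 of 20 upward and 5 downward, beside 5.1% and 7.15% of all genes tested. The median was -0.15. Of these 7 genes, which include *Plcl1*, only *Plce1* was past them in each fit that left out 1 mouse. *Plce1*, a phospholipase C activated by Ras, had 17.2, 25.6 and 22.7 CPM in control and 12.7, 10.2 and 16.6 in *AP1AR-DT* OE mice (Log2FC -0.73, SE 0.22). *Plcl1*, a phospholipase C-like protein without catalytic activity, was at -0.91 (SE 0.30) with overlapping groups and its highest value, 68.1 CPM, in control 3, without which it was at -0.55 and not past the thresholds. *Plcb1*, the main phospholipase C beta of cortical neurons, was at -0.04 (SE 0.16), and its sign was the opposite after the GC correction and after the length correction.

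Of 15 genes of IP3 metabolism, 1 was past the thresholds upward and 2 downward, with a median of 0.05. Both IP3 3-kinases named here, which convert IP3 to IP4, were past the thresholds with opposite signs. *Itpka*, the neuronal one of dendritic spines, was at 0.83 (SE 0.32), with 89.0, 37.9 and 61.1 CPM in control and 123, 133 and 79.5 in *AP1AR-DT* OE mice. *Itpkb* was at -0.53 (SE 0.16), with 109, 150 and 142 CPM in control and 85.0, 83.5 and 110 in *AP1AR-DT* OE mice, and both pairs of groups overlapped. *Itpka* was not past the thresholds with the GC corrections (0.56 and 0.57). *Ipmk*, an inositol polyphosphate kinase, was at -0.28 (SE 0.08) without overlap and under the threshold of 0.32.

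Among SERCA regulators and calcium-binding proteins of the ER, 0 of 18 were past the thresholds upward and 5 downward, beside 5.1% and 7.15% of all genes tested. Before correction 14 had a Log2FC below 0, and fewer did with either GC correction. The chaperone *Hsp90b1* had 114, 151 and 142 CPM in control and 89.3, 77.6 and 101 in *AP1AR-DT* OE mice (Log2FC -0.60, SE 0.14, edgeR adjusted P = 0.295), and the disulfide isomerase *Pdia3* was at -0.41 (SE 0.12), also without overlap. *Calr*, calreticulin, the main calcium buffer of the ER, was at -0.09 (SE 0.09) with overlapping groups. The genes of this list past the thresholds other than *Hsp90b1* and *Pdia3* were *Hspa5*, *Rcn1* and *Sln*, named after their values were seen. *Sln* had 6.33 CPM in control 3, 2.13 in control 2 and 0.32 to 0.501 in the other mice, and so rested on those 2 mice.

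Store-operated calcium entry had 0 of 16 genes past the thresholds (median -0.04), with *Stim2*, an ER calcium sensor, at -0.16 (SE 0.11), the ER tether *Esyt2* at -0.29 (SE 0.14) and the cation channel *Trpc5* at -0.76 (SE 0.39). Mitochondrial calcium uptake had 0 of 15 (median 0.09), with the uniporter *Mcu* at 0.32 (SE 0.15), its subunit *Smdt1* at 0.26 (SE 0.11) and the outer membrane channel *Vdac1* at 0.28 (SE 0.12). Calcium export had 1 of 15 upward and 1 downward (median -0.10). The plasma membrane pump *Atp2b2* was at 0.28 (SE 0.14), the sodium-calcium exchanger *Slc8a2* at 0.53 (SE 0.22) and the exchanger *Slc24a5* at -1.11 (SE 0.40), each with overlapping groups. *Slc8a2* was at 0.31 with either GC correction, and *Slc24a5* at -0.60 without control 3, neither past the thresholds.

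In the AKAP family, 1 of 16 was past the thresholds upward and 4 downward, beside 5.1% and 7.15% of all genes tested. The median was -0.26, with 12 genes below 0. Both the size of this median and the count below 0 were smaller with either GC correction. *Akap5*, the anchor of protein kinase A and calcineurin at excitatory synapses, had 116, 45.7 and 44.7 CPM in control and 35.2, 21.9 and 32.2 in *AP1AR-DT* OE mice (Log2FC -1.21, SE 0.40). Control 1 was far above the other mice, and without it the Log2FC was -0.60 and still past the thresholds. Of the 6 fits that left out 1 mouse, only the one without mouse B (-1.03) was not past them. *Akap14*, known from cilia, was at -2.31 (SE 0.51), with 0.737 to 1.4 CPM in control and 0.132 to 0.286 in *AP1AR-DT* OE mice. Markers of ciliated ependymal cells had a sum of 58.8 to 110 CPM in control and 32.7 to 64.6 in *AP1AR-DT* OE mice, with 3 of 6 past the thresholds downward, and their part in the *Akap14* values was not tested. The *Pakap* locus has 3 overlapping gene identifiers in the table, so its counts are uncertain. All 3 are counted among the 16 and among the 12 below 0, so that locus enters this list 3 times.

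Of 20 proteins held by or acting in the *Akap6* complex, 1 was past the thresholds upward and 1 downward, with a median of 0.05. *Nfatc3*, a transcription factor activated by calcineurin, had 18.1, 18.1 and 18.8 CPM in control and 13.8, 12.1 and 13.6 in *AP1AR-DT* OE mice, a Log2FC of -0.48 (SE 0.11, edgeR adjusted P = 0.295), or -0.28 and not past the thresholds with the correction for mean GC content. *Mef2d*, a transcription factor that calcineurin and ERK5 act on, was at 0.33 (SE 0.11), with 199 to 239 CPM in control and 250 to 294 in *AP1AR-DT* OE mice. It was not past the thresholds with the GC corrections by longest transcript (0.19) and by mean (0.15), nor without control 2 (0.28), mouse A (0.28) or mouse B, where it was just under 0.32. *Pde4d*, the phosphodiesterase of the complex, was at -0.07 (SE 0.16).

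The genes with profiles most like those of *Itpr1*, *Itpr3*, *Ryr2* and *Akap6* were sought as the 2 with the smallest root mean square (RMS) distance between log2 CPM values centred on each gene's mean, over 6 mice and 20732 genes. They were *Zfp655* (RMS 0.0162) and *Ptges3-ps* (0.0287) for *Akap6*, *Suox* (0.0233) and *Ifnar1* (0.0397) for *Ryr2*, *Gm49668* (0.0689) and *Ism1* (0.0738) for *Itpr1*, and *Gm4701* (0.105) and *Gm10676* (0.106) for *Itpr3*. *Zfp655* had 39.2, 40.5 and 35.4 CPM in control and 27.4, 28.6 and 34.6 in *AP1AR-DT* OE mice, the same order of mice as *Akap6*. With 6 mice and this many genes, some profiles lie close to any gene, and these names carry no test.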

How the data were processed

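RNA-seq of brain tissue from 3 control and 3 *AP1AR-DT* OE mice was analysed, and groups were taken from the sample labels. According to the methods of the study, the authors checked reads with FastQC, mapped 150-base pairs to GRCm38 with Bowtie2 at default settings, ran StringTie with the GENCODE annotation, and extracted counts with its Python script. The counts were deposited without normalization and are whole numbers derived from coverage. The submitters' processing notes name mm9, TopHat2 2.0.4, SAMtools, HTSeq, Cuffdiff and edgeR 2.6.12 instead, and the sources used here do not settle which account applies. Bowtie2 does not split reads at introns, and whether this lowered the counts of genes with many short exons was not tested. The deposited table also holds the authors' own DESeq2 comparison: a mean normalized signal, log2 fold changes with standard errors, a Wald score and P-values, none of which was used.

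The 9 genes and all gene lists were chosen with earlier results of these data known. Counts were fitted in R 4.3.3 with edgeR 4.0.16 (filterByExpr, TMM, quasi-likelihood F-test, two-sided, BH adjustment), which left 21844 genes, with a biological coefficient of variation of 0.313. For normalized CPM, each library was brought to one size with its TMM factor. The lowest chi-square per gene between 2 libraries was 45.6, so no library was a repeat of another. Totals of 42061721 to 54668294 counts set the precision, and P-values measure only the spread between these mice. Alternatives were DESeq2 1.42.0, limma-voom (limma 3.58.1), DESeq2 size factors, library totals, other filters on low counts, GC content and transcript length as offsets (splines with 5 degrees of freedom), other transcript lengths for levels, and leaving out each mouse. Correction for the mean GC content over transcripts and the count of read positions within exons were chosen after seeing the data. The fits were tested on simulated data, where edgeR made no call at an adjusted P under 0.05 among the genes that had been changed and the adjusted calls of DESeq2 held unchanged genes too, so an adjusted count of 0 does not show that genes did not differ. Of 2 marker lists, 1 gene each is not reported here and was left out of their sums. Gene models are GENCODE vM21 on GRCm38. In each list, the text names 1 gene fixed for its role, any gene with an adjusted P under 0.05, and the 2 with the smallest P. Python 3.11.15 was used with scipy 1.17.1 for exact tests, with pandas 2.3.3 for tables, and with matplotlib 3.10.9 for plots.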

Additional observations from a re-analysis of the deposited data

How the results depend on the processing

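Of 135 Log2FC values of the 9 genes under 15 alternatives, 130 moved by less than the spread between mice, the pooled SD of log2 CPM within groups. The other 5 moved by more (*Itpr2* with the length correction, *Ryr2* with the length and mean GC corrections, *Akap6* with the GC and length corrections), and the 3 genes past the thresholds kept their sign. For *Itpr1*, *Ryr3*, *Atp2a2* and *Atp2a3* this spread was larger than the Log2FC, so values of opposite sign counted as the smaller move. For *Ryr1* the spread was 0.65, so its Log2FC of 0.50 without mouse A did too. The count of 130 therefore does not show that the values were stable. The number of the 9 genes past the thresholds was 3 by edgeR, 4 by DESeq2, 1 with the GC correction by longest transcript and 2 with that by mean GC content. When 1 mouse was left out it was 0 to 4: 0 without control 2 or without mouse A, and 4 without control 1. *Akap6* was past them in 10 of 16 fits, *Itpr2* and *Itpr3* in 11 each, *Ryr1* in 4 and *Ryr2* in 2. In the calcium-handling lists the 9 genes past the thresholds upward became 4 with the GC correction by longest transcript and 3 with the one by mean GC content. They became 3 to 22 when 1 mouse was left out (22 without control 1, 5 without control 2, 3 without mouse A or B). The 21 downward became 6 to 25 (8 without mouse A, 6 without mouse B). Over all genes, the share past the thresholds was 7.18% and 7.12% with these 2 GC corrections and 6.33% to 15.6% when 1 mouse was left out. DESeq2 gave 5 genes of the lists with an adjusted P under 0.05, and edgeR and the other alternatives gave 0. The Log2FC of *Plcb1* turned from -0.04 to 0.104 and 0.103 with these GC corrections and 0.057 with length, and ran from -0.167 to 0.112 when 1 mouse was left out (0.112 without control 1, 0.027 without mouse B). That of *Pde4d* ran from -0.173 to 0.039 (0.039 without mouse B), and the cause was not tested. Of 8 neighbours in the order of levels, 3 to 5 were ordered alike in every mouse under the other lengths, and 4 in each fit that left out 1 mouse, where 5 mice cannot give an exact p under 0.0625. *Ryr1* and *Itpr3*, with few counts per kilobase, and the 3 mice per group limit the precision. No paired analysis was run, because the labels and the study's text describe no pairs of mice for these libraries. The column numbers of the *AP1AR-DT* OE group, 1 to 3, do not match its labelled mice, 3 to 5.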
